A study of Mus musculus with 4 samples.

Results

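The accessible chromatin at 4 genes was described in ATAC-seq samples of mouse mesenchymal stem cells (MSCs): Runx1, Runx2 and Runx3, which encode the DNA-binding subunits of core-binding factor, and Cbfb, which encodes their common partner. A peak belonged to a gene when it overlapped the gene in the GENCODE vM21 annotation of GRCm38 (mm10) or the 5 kb upstream of its start, and 64 of the 117282 peaks in the table met this rule. Runx1 held 15 of them, Runx2 35, Runx3 9 and Cbfb 5. The series comprised 2 samples of old MSCs, from mice of 18 to 22 months, and 2 samples of young MSCs, from mice of 3 to 5 months, which were all grown in 2% O2 with no other treatment named in the labels. The labels gave neither genotype, strain nor sex. The methods of the study describe bone MSCs from hind limbs of wild-type male C57BL6/N mice of 3 to 5 months, sorted as CD45-/Ter-119-/Sca-1+/CD140a+ cells. They do not describe the old mice, nor say how many mice went into each ATAC-seq sample. The p-values therefore measure the spread between these samples, which may be technical. In ATAC-seq a transposase cuts and tags open DNA, and the number of tagged fragments over a peak measures how open it was. Since each sample was a population of cells, openness in fewer cells and less openness per cell cannot be told apart.

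RUNX proteins bind a short DNA motif through their runt domain, and CBFB, which does not touch DNA itself, holds that domain in its binding form and protects the protein from degradation. Runx2 is the master regulator of the osteoblast lineage, Runx1 is required for definitive blood formation and is also active in skeletal progenitors, and Runx3 acts in T cells, sensory neurons and maturing cartilage. Each Runx gene is transcribed from a distal promoter, called P1, and a proximal promoter, called P2, and the resulting proteins differ in their first residues.

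The start sites of coding transcripts were assigned to the distal or the proximal promoter by the first residues they encode. Runx1 lay on the minus strand of chromosome 16, from 92601466 to 92826149, with its distal start at 92826149 and its proximal start at 92697328. Runx2 lay on the minus strand of chromosome 17, from 44495987 to 44814797, with its distal start at 44814797 and its proximal start at 44736648. Runx3 lay on the plus strand of chromosome 4, with starts at 135120652 and 135152496, and Cbfb on the plus strand of chromosome 8, with starts from 105170674 to 105170945. The 150 bases before 6 of these starts, read on the strand of the gene from the RefSeq assembly GRCm38.p6, are given to show the sequence under promoter peaks described below. Capitals mark RUNX motifs (TGTGGT), AP-1 motifs (TGANTCA) and TEAD motifs (GGAATG) on either strand.
Runx1 distal, chr16:92826150-92826299: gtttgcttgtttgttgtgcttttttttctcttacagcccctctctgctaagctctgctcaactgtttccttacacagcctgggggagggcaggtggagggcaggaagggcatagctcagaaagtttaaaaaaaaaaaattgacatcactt
Runx1 proximal, chr16:92697329-92697478: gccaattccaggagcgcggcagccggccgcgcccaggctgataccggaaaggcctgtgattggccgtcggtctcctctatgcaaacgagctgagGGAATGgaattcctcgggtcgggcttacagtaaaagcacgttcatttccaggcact
Runx2 distal, chr17:44814798-44814947: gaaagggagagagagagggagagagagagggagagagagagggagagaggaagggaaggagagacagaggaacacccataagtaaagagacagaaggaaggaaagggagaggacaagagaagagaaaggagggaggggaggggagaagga
Runx3 distal, chr4:135120502-135120651: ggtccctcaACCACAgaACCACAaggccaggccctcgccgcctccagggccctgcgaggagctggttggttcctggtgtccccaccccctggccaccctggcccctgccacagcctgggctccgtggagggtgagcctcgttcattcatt
Runx3 proximal, chr4:135152346-135152495: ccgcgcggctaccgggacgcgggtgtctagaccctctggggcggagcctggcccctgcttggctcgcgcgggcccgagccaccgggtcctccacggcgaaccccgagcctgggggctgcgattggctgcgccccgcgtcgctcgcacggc
Cbfb, chr8:105170524-105170673: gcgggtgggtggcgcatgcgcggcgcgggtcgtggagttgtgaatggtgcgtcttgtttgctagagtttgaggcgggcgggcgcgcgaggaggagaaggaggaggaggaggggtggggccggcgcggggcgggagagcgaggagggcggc

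The number of CpG dinucleotides in the stretches shown was 0 for Runx1 distal, 12 for Runx1 proximal, 0 for Runx2 distal, 5 for Runx3 distal, 22 for Runx3 proximal and 19 for Cbfb, against a median of 4 in the same window of 32851 RefSeq promoters. Since not every start is included, these counts do not compare distal with proximal promoters. On the sense strand 94.0% of the Runx2 distal stretch was purine, a share exceeded by 0.00609% of the RefSeq promoters. In the 200 bases before the start, Runx3 distal held 2 RUNX motifs and Runx2 distal held 1, while the other 4 shown held none. Among all RefSeq promoters 11.2% held at least 1 RUNX motif there, 5.48% an AP-1 motif and 10.1% a TEAD motif. The proximal stretch of Runx1 held 1 TEAD motif, and no AP-1 motif was present in any of the 6.

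To ask whether accessibility at these genes differed with age, the deposited values were divided by RLE factors, which bring the median ratio of every sample to the average peak to the same level, and tested with limma on log2(value + 1). The value of a peak is a count scaled to the library and not divided by length, so levels are compared between peaks only per kb. Library totals ranged from 28259470 to 32559794 counts, and 3 counts corresponded to deposited values between 0.921 and 1.06. None of the 64 peaks passed an adjusted p of 0.01 (limma, Benjamini-Hochberg over all peaks), a threshold that 0.0563% of all peaks passed. At an unadjusted limma p under 0.05, 7 of the 64 were higher in old MSCs, where the share among all peaks was 7.49%, and 3 were lower, where it was 8.87%. Without old replicate 1, 4 members passed the adjusted threshold, as did 8.83% of all peaks, and without old replicate 2, 2 passed, as did 1.43% of all peaks. In such a fit the single old sample was assumed to vary like the young ones.

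The levels of both old samples lay above those of both young samples at 17 of the 64 peaks (23.2% of all peaks) and below them at 8 (24.2% of all peaks). As deposited, without RLE factors, the counts were 4 higher (7.56% of all peaks) and 13 lower (43.5% of all peaks), and the median log2 fold change of all peaks was -0.27 as deposited and 0.00 after RLE scaling. The median log2 fold change over the 64 members was 0.10 after RLE scaling and -0.18 as deposited. By gene it was 0.20 for Runx1, 0.06 for Runx2, 0.20 for Runx3 and -0.22 for Cbfb, and as deposited -0.09, -0.22, -0.08 and -0.50, so that the first 3 changed sign with the scaling.

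**Figure D1:**
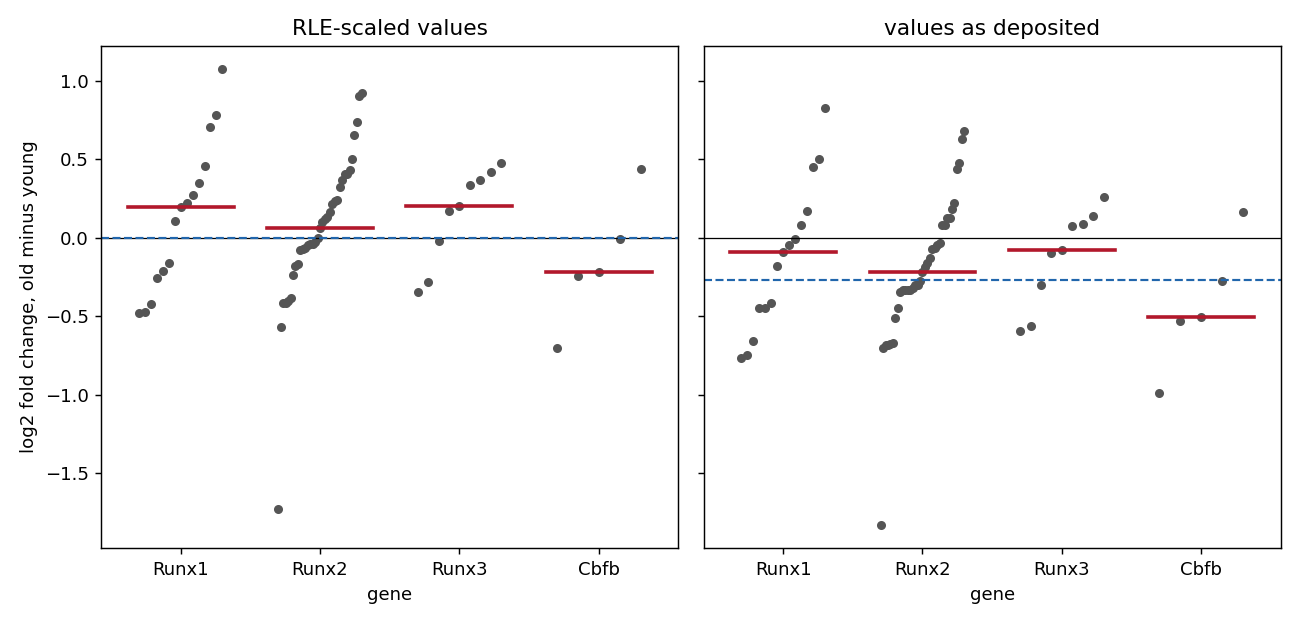
Each point is a peak of Runx1, Runx2, Runx3 or Cbfb, and the vertical axis gives its log2 fold change, old minus young, after RLE scaling (left) and as deposited (right). Red bars are the medians of each gene and the dashed line is the median of all peaks, 0.00 on the left and -0.27 on the right, and most members shift down with that line.

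The 2 old samples differed from each other over these genes. Old replicate 2 was above old replicate 1 at 52 of the 64 members, or 81.2%, against 49.0% of all peaks, and it was the highest of the 4 samples at 39 members, or 60.9%, against 31.1% of all peaks. At Runx1 it was the highest sample at 11 of 15 peaks and at Runx2 at 21 of 35, whereas at Cbfb it was the highest at 1 of 5. The median log2 difference of Runx1 peaks was accordingly -0.28 and -0.07 for old replicate 1 minus each young sample, and 0.41 and 0.50 for old replicate 2. For Runx2 the same medians were -0.10, -0.17, 0.28 and 0.32. Without old replicate 2 the median log2 fold change was -0.18 for Runx1 and -0.08 for Runx2, and the cause of the difference between the old samples was not tested.

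Runx1 stood out by the extent of its open chromatin. Its 15 peaks covered 48.2% of the 224.684 kb of the gene, a larger share than in all but 2.70% of the 6105 protein-coding genes of 40 kb or more with which it was compared, whose median was 8.51%. Most of this came from a single peak of 85.9 kb (chr16:92605701-92691600), which began 4.53 kb downstream of the proximal promoter and 134 kb downstream of the distal promoter. Among all peaks 1 was wider, and the median width was 1200 bp. It spanned 4 of the 7 coding exons of the transcript Runx1-201 and the antisense gene Gm26626, whose fragments cannot be told apart from those of Runx1. Its values were 1406 and 1554 in old MSCs and 1714 and 1588 in young MSCs, that is, both old samples were lower (log2 fold change -0.16, SE 0.09, adjusted p = 0.399). Without old replicate 2 it passed the threshold, at -0.22 with an adjusted p of 0.00984, and over all 13 alternative fits its adjusted p ranged up to 0.928. Per kb it reached 18.2, close to the 17.6 of the median Runx1 peak.

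The peak over the Runx1 distal promoter (chr16:92822501-92826600), 125 kb upstream of the proximal promoter, had values of 81.8 and 120 in old MSCs and 87.9 and 85.2 in young MSCs. The old samples lay on either side of the young ones (log2 fold change 0.20, SE 0.19, adjusted p = 0.663). The peak over the proximal promoter (chr16:92694601-92699400), 126 kb downstream of the distal promoter, had 142 and 213 in old and 175 and 149 in young MSCs. Again old replicate 1 was the lowest and old replicate 2 the highest sample (log2 fold change 0.10, SE 0.18, adjusted p = 0.821), and the sign was negative as deposited for both promoter peaks, at -0.09 and -0.18. This proximal peak was the most accessible of Runx1 per kb, at 35.3, the 90.0th percentile of all peaks.

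The remaining 12 peaks of Runx1 fell upstream of the gene, between the promoters, just downstream of the proximal promoter and at the 3′ end. The upstream peak lay 1.45 kb before the distal and 130 kb before the proximal promoter, with 12.2 per kb. In the intron between the promoters, peaks lay 28.6 kb downstream of the distal and 99.2 kb upstream of the proximal promoter, at 36.6 and 90.8 kb, at 41.4 and 84.8 kb, at 45.0 and 80.3 kb and at 51.7 and 76.0 kb. These 5 had 10.1, 17.8, 22.9, 17.6 and 18.3 per kb in that order. At 2 of them both old samples were above both young ones, beside 23.2% of all peaks. Values there were 51.2 and 64.3 against 48.4 and 46.3 at 41.4 kb, and 58.5 and 71.4 against 54.4 and 40.4 at 45.0 kb. No peak overlapped the stretch 22 to 25 kb downstream of the distal promoter, where an enhancer of Runx1 in blood progenitors is known. Further along, sparse peaks lay at 85.4 and 42.8 kb and at 105 and 22.7 kb, with 12 and 7.76 per kb.

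Both old samples were above both young ones at 5 of the 15 Runx1 peaks, beside 23.2% of all peaks. Of these, 3 intronic peaks lay closest to the proximal promoter. The first (chr16:92710001-92711100), 115 kb downstream of the distal and 12.7 kb upstream of the proximal promoter, had 35.7 and 43.6 in old MSCs and 22.6 and 22.6 in young MSCs (log2 fold change 0.78, SE 0.23, adjusted p = 0.0966). It fell short of the threshold with all samples, and passed it in 1 of 13 alternative fits, without old replicate 1 (log2 fold change 0.92, adjusted p = 0.00324), while the highest adjusted p was 0.667, without young replicate 2. The second (chr16:92705601-92706900), at 119 and 8.27 kb, had 8.61 and 16.8 in old against 6.63 and 7.42 in young MSCs (log2 fold change 0.70, SE 0.34, adjusted p = 0.318). The last (chr16:92693201-92694100), 132 kb downstream of the distal and 2.02 kb downstream of the proximal promoter, had 9.90 and 10.7 in old against 3.98 and 4.75 in young MSCs (log2 fold change 1.08, SE 0.34, adjusted p = 0.120). Its fold change had the highest value among the Runx1 peaks, at a weak peak of 8.14 per kb, the 8.09th percentile.

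The central bases of the first and last of these peaks are shown because both hold RUNX motifs, on the strand of Runx1 and with the same capitals as above. The last held 4 RUNX motifs in its central 300 bases, a number reached by 0.102% of all peaks, and 3 of them lay in a run rich in TTG repeats.
First peak, chr16:92710491-92710610: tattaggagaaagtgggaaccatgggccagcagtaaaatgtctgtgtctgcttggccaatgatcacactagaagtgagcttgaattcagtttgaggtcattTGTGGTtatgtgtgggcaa
Last peak, chr16:92693501-92693800: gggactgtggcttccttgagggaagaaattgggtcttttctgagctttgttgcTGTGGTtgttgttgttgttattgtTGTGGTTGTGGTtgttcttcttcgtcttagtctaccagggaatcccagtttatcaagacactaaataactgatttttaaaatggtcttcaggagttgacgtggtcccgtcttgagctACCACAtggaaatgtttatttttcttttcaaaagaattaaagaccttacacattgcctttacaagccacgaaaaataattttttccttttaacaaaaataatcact

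Lower values in both old samples were measured at 3 of the 15 Runx1 peaks, including the 85.9 kb peak, beside 24.2% of all peaks. At 36.6 kb downstream of the distal promoter (chr16:92788101-92789200), values were 14.2 and 18.0 in old and 18.2 and 27.9 in young MSCs (log2 fold change -0.47, SE 0.28, adjusted p = 0.413). At the 3′ end of the gene (chr16:92594701-92603400), 222 kb downstream of the distal and 92.7 kb downstream of the proximal promoter, they were 165 and 92.1 in old and 177 and 168 in young MSCs. Here old replicate 1 was near the young samples and old replicate 2 far below them (log2 fold change -0.48, SE 0.21, adjusted p = 0.254), and without old replicate 1 the fit gave -0.90 with an adjusted p of 2.43e-09, and without old replicate 2 an adjusted p of 0.874. Over all Runx1 peaks the summed values were 2002 and 2271 in old against 2354 and 2178 in young MSCs, which overlapped.

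Runx2 had the most peaks, and they covered 19.2% of its 318.811 kb. The gene span reaches so far downstream only through 1 transcript, which is annotated as a target of nonsense-mediated decay. No coding transcript reaches further downstream than 44604001, and 14 of the 35 peaks lay beyond that point. The gene also shares its 5′ part with Supt3, which encodes a subunit of the SAGA coactivator and is transcribed from the opposite strand, and accessibility over both genes cannot be assigned to either.

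The peak over the Runx2 distal promoter (chr17:44813901-44815700), which lay within Supt3 and 77.3 kb upstream of the proximal promoter, had values of 61.1 and 81.7 in old and 55.1 and 54.0 in young MSCs. Both old samples were higher (log2 fold change 0.37, SE 0.20, adjusted p = 0.381), and as deposited the log2 fold change was 0.08. The peak over the proximal promoter (chr17:44733501-44739400), 74.8 kb downstream of the distal promoter and over the start of the antisense gene Runx2os1, had 109 and 137 in old and 119 and 109 in young MSCs. The groups overlapped there (log2 fold change 0.10, SE 0.17, adjusted p = 0.814; as deposited -0.18).

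Between the promoters of Runx2, 4 more peaks lay in the intron. The first (chr17:44776501-44778500), 35.7 kb downstream of the distal and 39.9 kb upstream of the proximal promoter, covered the start site of Supt3. It had 65.8 and 118 in old and 84.9 and 96.8 in young MSCs, so that the old samples enclosed the young ones (log2 fold change -0.04, SE 0.22, adjusted p = 0.954), and at 45.7 per kb it was the second most accessible Runx2 peak. The next (chr17:44772601-44773500), at 40.7 and 36.0 kb, had 6.02 and 11.3 in old and 2.99 and 5.05 in young MSCs (log2 fold change 0.92, SE 0.39, adjusted p = 0.251). Both old samples were higher at this weak peak of 7.04 per kb. The last 2, at 42.7 and 34.0 kb and at 45.0 and 30.3 kb, had 24.8 and 21.4 per kb.

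Downstream of the proximal promoter but within the coding transcripts lay 15 peaks, all in introns. Their distances from the distal and the proximal promoter were 85.5 and 6.93 kb, 95.2 and 16.6 kb, 103 and 24.2 kb, 111 and 32.5 kb, and 113 and 34.4 kb for the first 5. The peak 24.2 kb from the proximal promoter, with 18.7 per kb, overlapped the start of the antisense gene Runx2os2, and the others had 6.85, 9.41, 15.1 and 8.62 per kb. The next 5 lay at 128 and 49.5 kb, 136 and 57.1 kb, 146 and 67.7 kb, 150 and 71.1 kb, and 153 and 74.4 kb, with 10.2, 18.2, 12.3, 16.4 and 25.2 per kb. The last of them (chr17:44659301-44661200) had 37.9 and 74.1 in old and 38.8 and 40.7 in young MSCs, with old replicate 2 alone apart from the rest. Its log2 fold change was 0.41 (SE 0.26, adjusted p = 0.455) and became 0.88 with an adjusted p of 0.000292 without old replicate 1, against 0.925 without old replicate 2, for which reason it is named here after its values were seen. The final 5 lay at 159 and 80.3 kb, 169 and 90.2 kb, 190 and 111 kb, 194 and 116 kb, and 199 and 120 kb, with 14, 14.8, 8.19, 13.7 and 20.5 per kb. Over these 15 peaks no log2 fold change passed the threshold.

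The 14 peaks beyond the coding transcripts included the one with the highest level per kb at any of the 4 genes. This peak (chr17:44499501-44502700), 312 kb downstream of the distal and 233 kb downstream of the proximal promoter, had 155 and 210 in old and 194 and 180 in young MSCs. The groups overlapped (log2 fold change -0.05, SE 0.16, adjusted p = 0.916), and its 57.7 per kb lay at the 97.5th percentile of all peaks. A few kb nearer to the promoters (chr17:44504301-44506300), at 308 and 229 kb, both old samples were higher, with 25.0 and 25.6 against 11.9 and 14.2 in young MSCs. Here the log2 fold change was 0.90 (SE 0.26, adjusted p = 0.0878), short of the threshold and at a level of 9.60 per kb.

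The largest negative fold change of Runx2 was at a peak of 0.2 kb (chr17:44529001-44529200), 285 and 206 kb downstream of the promoters, with 0 and 0.305 in old against 3.65 and 2.08 in young MSCs. This rested on 1 count in the old samples together and 18 in the young ones, a ratio of 0.0633 (95% interval of counting error 0.00152 to 0.401; log2 fold change -1.73, SE 0.51, adjusted p = 0.0931). The peak abutted another (chr17:44527601-44529000), at 285 and 207 kb, where both old samples were higher, at 15.9 and 15.2 against 8.96 and 8.90 (log2 fold change 0.74, SE 0.29, adjusted p = 0.208). Added together, the abutting peaks had 15.9 and 15.6 in old and 12.6 and 11 in young MSCs (log2 fold change 0.39, not tested). Of the other peaks named by rule, that at 259 and 180 kb (chr17:44554901-44555400) had 3.44 and 8.54 in old and 3.65 and 2.67 in young MSCs, which overlapped (log2 fold change 0.66, SE 0.43, adjusted p = 0.478).

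The other 9 peaks beyond the coding transcripts were of moderate level. They lay at 213 and 134 kb, 221 and 142 kb, 225 and 146 kb, and 229 and 150 kb from the distal and the proximal promoter, with 10.7, 16.7, 14.1 and 10.00 per kb. Then came peaks at 248 and 169 kb, 250 and 172 kb, 263 and 184 kb, 276 and 198 kb, and 293 and 214 kb, with 21.3, 12.4, 15.2, 8.39 and 18.6 per kb. Across all 35 peaks the summed values were 1047 and 1410 in old and 1143 and 1164 in young MSCs, and the old samples enclosed the young ones.

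**Figure D2:**
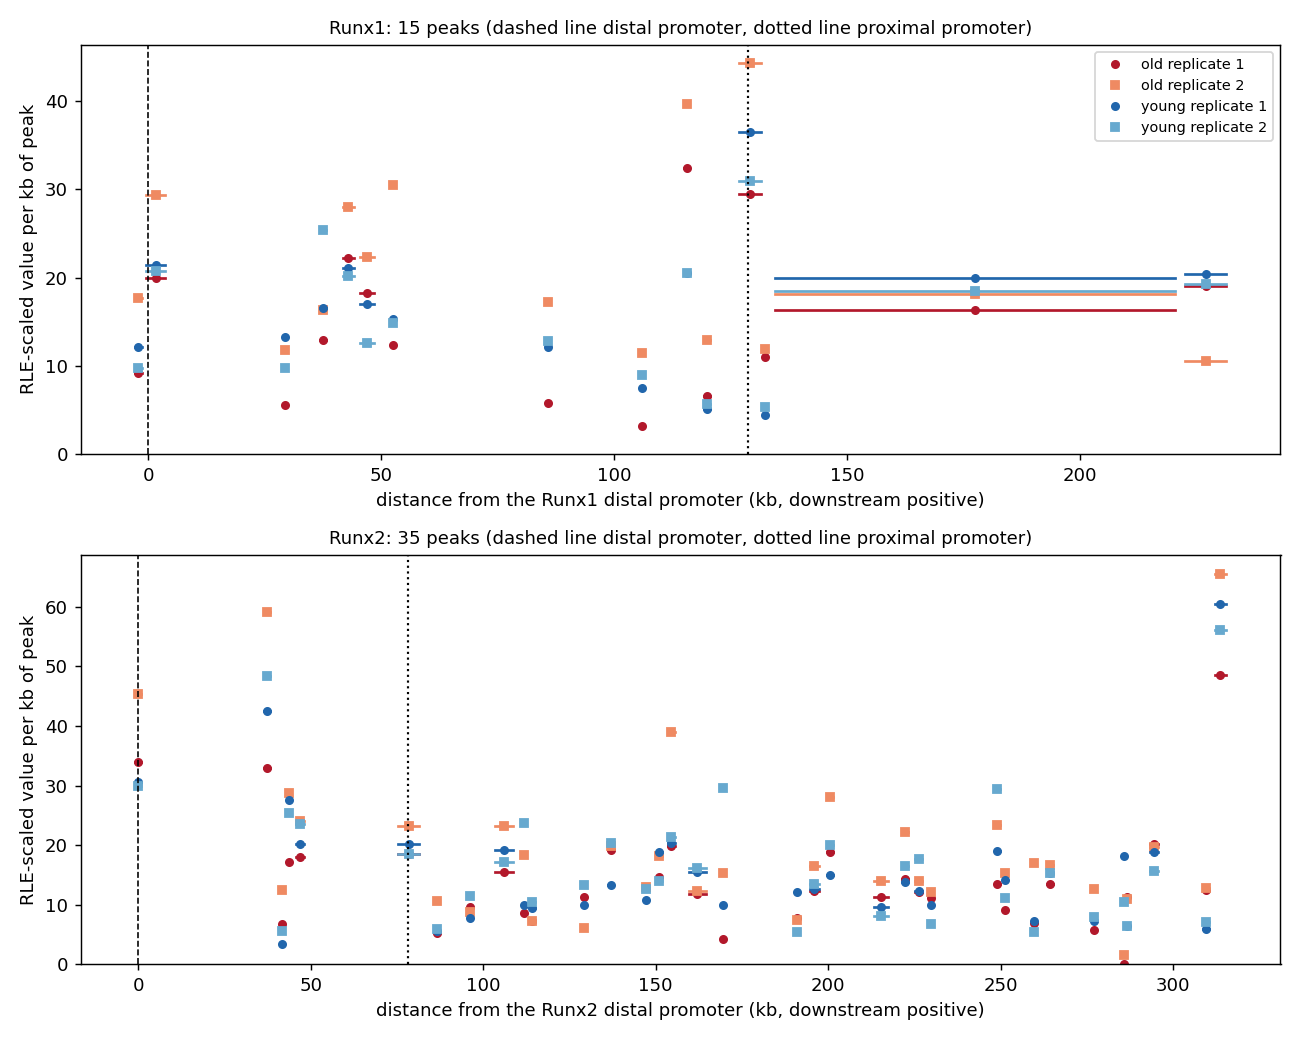
Peaks of Runx1 (top) and Runx2 (bottom) by their distance in kb from the distal promoter on the horizontal axis and their RLE-scaled value per kb of peak on the vertical axis, with 1 marker per sample and horizontal lines for the width of each peak. The 85.9 kb peak follows the Runx1 proximal promoter (dotted line), and the highest Runx2 level lies 312 kb downstream of the distal promoter (dashed line).

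The promoters of each gene were next compared within samples. Per kb, the distal peak of Runx1 had 0.648 times the level of the proximal peak, whereas the distal peak of Runx2 had 1.74 times and that of Runx3 1.51 times the proximal level. Merged peaks of different width dilute these levels to different degrees. The log2 distal minus proximal value, computed on whole peaks, was -0.78 and -0.82 for Runx1 in old MSCs and -0.99 and -0.80 in young MSCs. These overlapped (difference 0.09, two-sided exact permutation p = 0.67). For Runx2 it was -0.83 and -0.74 in old and -1.09 and -1.0 in young MSCs, a shift towards the distal promoter in both old samples. The difference was 0.27 with a two-sided exact permutation p = 0.33, the smallest that 2 samples against 2 allow. For Runx3 it was 0.39 and 0.23 in old and 0.15 and 0.57 in young MSCs, which overlapped (difference -0.05, two-sided exact permutation p = 1.00).

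**Figure D3:**
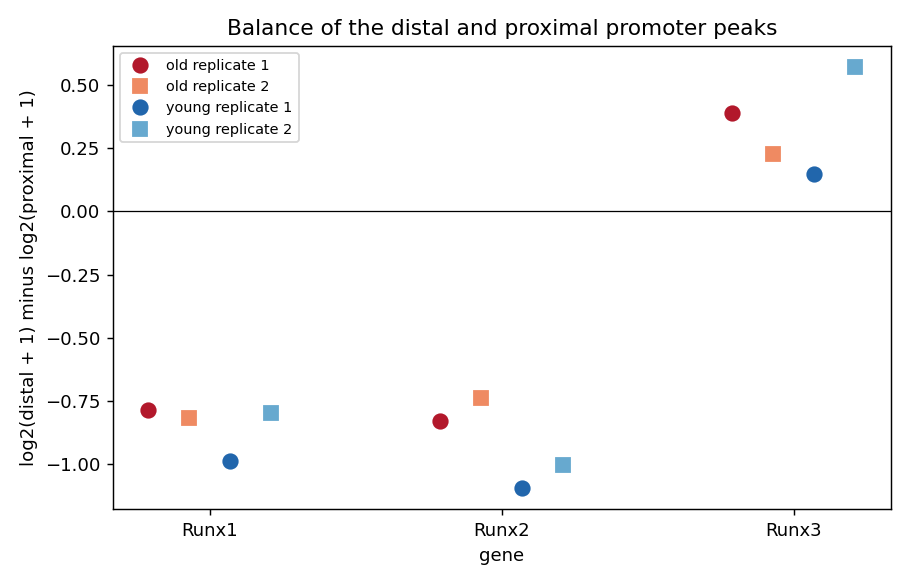
For Runx1, Runx2 and Runx3, the vertical axis gives log2(value + 1) of the distal minus that of the proximal promoter peak in each of the 4 samples. At Runx2 the old samples, -0.83 and -0.74, sit above the young samples, -1.09 and -1.0, while at Runx1 and Runx3 the groups overlap.

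Among 16205 promoter peaks, those whose log2 values were nearest to the Runx1 proximal peak over the 4 samples belonged to Cdc42se1 and Mllt11, which share a peak, to Eif4g2 and to Cltc, with root mean square differences of 0.051, 0.051 and 0.053. Nearest to the Runx2 distal peak were Zfp148, Hoxa11 and Aprt, with 0.049, 0.051 and 0.059. With 4 samples this likeness describes levels and carries no test.

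Runx3 was the least accessible of the 3 Runx genes. Its 9 peaks had a median of 12 per kb, below the 17.6 of Runx1 and the 14.1 of Runx2 and at the 41.6th percentile of all peaks. The distal promoter peak (chr4:135118701-135121800), which also covered the start of the gene Gm16225, had 40.9 and 43.0 in old and 29.5 and 35.3 in young MSCs. The proximal promoter peak (chr4:135150401-135154100) had 31.0 and 36.6 in old and 26.5 and 23.4 in young MSCs. At both, the old samples were higher than the young ones (log2 fold change 0.37, SE 0.22, adjusted p = 0.426, and 0.42, SE 0.23, adjusted p = 0.388). A peak between them (chr4:135141601-135142200), 20.9 kb downstream of the distal promoter, had 3.01 and 7.62 in old and 4.31 and 2.37 in young MSCs, which overlapped (log2 fold change 0.47, SE 0.45, adjusted p = 0.642). The other 6 had log2 fold changes from -0.35 to 0.34. Summed over the gene, values were 185 and 209 in old and 170 and 175 in young MSCs, and as deposited 150 and 210 against 181 and 201, so the groups separated only after RLE scaling.

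Cbfb was the one gene of the 4 whose peaks had a negative median after RLE scaling, and the nearest of all members to the threshold lay just before it. This peak (chr8:105163601-105166300), 4.37 kb upstream of the first start of Cbfb and over the start of the noncoding gene Gm3830, had 87.8 and 77.2 in old and 139 and 129 in young MSCs. In neither old sample did it reach the level of a young one (log2 fold change -0.70, SE 0.17, adjusted p = 0.0521). As deposited the log2 fold change was -0.99 with an adjusted p of 0.0171, and without old replicate 1 or 2 it was -0.79 and -0.60, with adjusted p-values of 2.98e-06 and 0.00282. Without young replicate 1 or 2 the adjusted p was 0.486 and 0.551, and under plain moderation 0.220. It ranked among the more accessible peaks, at 40.2 per kb and the 92.7th percentile. The central bases of the peak, read on the strand of Cbfb, hold none of the motifs searched.
Peak upstream of Cbfb, chr8:105164891-105165010: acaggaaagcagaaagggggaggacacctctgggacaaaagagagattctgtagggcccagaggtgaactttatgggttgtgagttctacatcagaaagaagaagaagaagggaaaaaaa

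The peak over the Cbfb start sites (chr8:105167101-105174200), which also overlapped the noncoding genes Gm3830 and Gm22063, had 203 and 202 in old and 246 and 233 in young MSCs, again lower in both old samples (log2 fold change -0.24, SE 0.14, adjusted p = 0.402). In an intron, 14.9 kb downstream, the peak with the highest level per kb of the gene, 51.6, had 68.8 and 83.6 in old and 78.3 and 99.7 in young MSCs, which overlapped. A peak 35.2 kb downstream (chr8:105206101-105207400) went the other way, with 21.1 and 25.6 in old and 15.3 and 18.7 in young MSCs (log2 fold change 0.44, SE 0.26, adjusted p = 0.419). The last, 46.5 kb downstream at the 3′ end, had a log2 fold change of -0.01. Summed over the 5 peaks, Cbfb had 393 and 395 in old and 487 and 492 in young MSCs, and this lower level was also present as deposited, with a median log2 fold change of -0.50 against -0.27 for all peaks. Without the upstream peak, the median over the gene body was -0.11, and without young replicate 2 the median over all 5 peaks was -0.05.

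**Figure D4:**
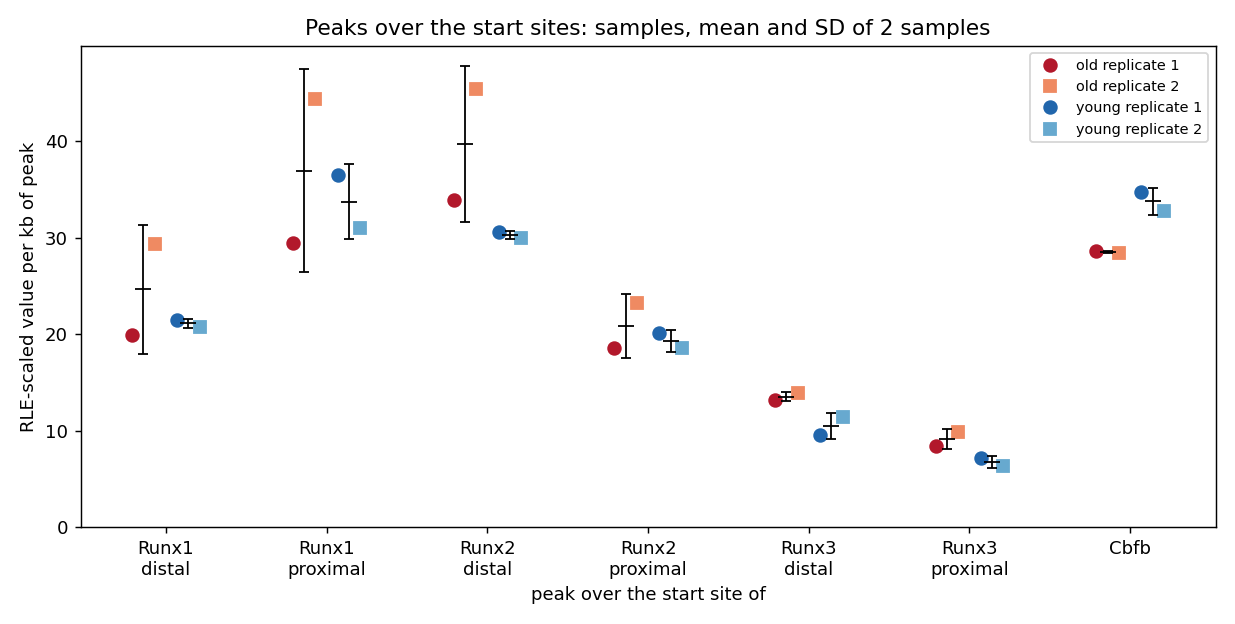
RLE-scaled value per kb of the peaks over the distal and proximal start sites of Runx1, Runx2 and Runx3 and over the Cbfb start, with 1 marker per sample and the mean and SD of the 2 samples of each age in black. Old replicate 2 is the highest sample at all peaks of the Runx genes, and at Cbfb both old samples lie below both young samples.

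Motifs were searched in the central 300 bases of each peak. This window ran past the edges of peaks narrower than 300 bases, and covered only a small part of the 85.9 kb peak of Runx1. RUNX motifs were present in 16 of the 64 members, or 25.0%, close to the 26.0% of all peaks. By gene they were in 5 of 15 Runx1 peaks, 5 of 35 Runx2 peaks, 6 of 9 Runx3 peaks and 0 of 5 Cbfb peaks. AP-1 motifs were in 15 members, or 23.4%, against 21.5% of all peaks, and TEAD motifs in 12, or 18.8%, against 20.9%.

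Genes of the same pathway were described by the peak at their promoter, within 1 kb of a coding start. Of 15 RUNX targets in bone, 14 had such a peak and 0 passed the adjusted threshold. At an unadjusted limma p under 0.05, 3 were higher in old MSCs, namely Spp1 (osteopontin), Col1a2 (a chain of type I collagen) and Ihh (Indian hedgehog), and 0 were lower. Spp1 had 62.4 and 57.6 in old against 43.1 and 41.0 in young MSCs (log2 fold change 0.50, adjusted p = 0.221), and Ihh 50.8 and 46.7 against 35.5 and 30.0 (0.56, adjusted p = 0.199). Bglap, which encodes osteocalcin, had 9.90 and 12.2 against 9.95 and 8.90, which overlapped. The median log2 fold change of these targets was 0.12, beside -0.03 for all 16205 promoter peaks, and as deposited -0.16 beside -0.31.

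Partners and activators of RUNX proteins had a promoter peak at 16 of 16 genes, with 0 past the threshold and a median log2 fold change of -0.02. Inhibitors had a peak at 20 of 20 genes, with 0 past the threshold and a median of -0.06. The histone deacetylase gene Hdac5, with 151 and 195 against 125 and 119 (log2 fold change 0.49, adjusted p = 0.145), and the corepressor gene Cbfa2t3, with 47.8 and 56.1 against 35.5 and 36.2 (0.52, adjusted p = 0.229), had an unadjusted limma p under 0.05. Across all promoter peaks this looser level was met by 694 higher and 869 lower.

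The labelled cell type was checked with marker genes. A promoter peak was present at 10 of 10 stromal markers, among them Ly6a and Pdgfra, which encode the sorted antigens Sca-1 and CD140a. Of 10 blood markers 4 had one, namely Spi1, Csf1r, Laptm5 and Cd68, whose peak also covered Eif4a1 and Mpdu1, and Ptprc, Itgam, Vav1, Gata1 and Cd3e were among those with none. Of 5 endothelial markers Pecam1 and Kdr had one. Per kb, the median stromal peak was at the 73.3th percentile of all peaks, the median blood peak at the 66.7th and the median endothelial peak at the 53.3th. The median over all promoter peaks lay higher than each of these, at percentile 83.2. The lowest stromal peaks were those of Eng, at the 1.24th percentile, and Lepr, at the 10.6th. Summed values of the blood peaks were 423 and 620 in old and 569 and 508 in young MSCs. Most of each sum came from the Cd68 peak shared with Eif4a1 and Mpdu1, with 326 and 478 in old and 458 and 399 in young MSCs. Summed values of the endothelial peaks were 42.2 and 40.9 in old against 30.2 and 32.4 in young MSCs. The part of other cells in the values of the Runx genes and Cbfb was not tested.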

How the data were processed

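ATAC-seq values of 2 old and 2 young MSC samples were analysed at 117282 peaks. The authors deposited 1 value for every peak in every sample under the name RPKM, here called a score. In each sample 100% of them were whole multiples of a single step (tolerance 0.001), whatever the peak length. The values were therefore not divided by length. Per the labels and the study's methods, reads were mapped to mm10 with Bowtie2, duplicates were removed with Picard, and peaks and values came from chromstaR, whose methods text covers hypoxia- and normoxia-cultured cells. Library totals follow from the steps if each library was scaled to 10000000, and as chromstaR bins overlap these are called counts and not reads. Overlapping genes and antisense genes share their fragments.

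Values were divided by RLE factors (0.813 and 1.01 in old, 1.07 and 1.15 in young samples), and log2(value + 1) was fitted in limma 3.58.1 under R 4.3.3 by lmFit and eBayes (trend and robust moderation), with Benjamini-Hochberg adjustment over all peaks and a threshold of 0.01. The test was checked on simulated data. Python 3.11.15, numpy 2.4.6, pandas 2.3.3, scipy 1.17.1, pysam 0.24.0 and matplotlib 3.10.9 were used for the rest. Distances run from the edge of a peak to the nearest start site of a promoter. Values of all samples are given for peaks within 1 kb of a start, for any past the threshold, for the 5 largest absolute fold changes and 3 highest levels per kb of Runx1 and of Runx2, and for the 2 largest absolute fold changes of Runx3 and of Cbfb. The members, gene lists and motifs were chosen with earlier results of these data known. Intervals cover counting error only. Some items are not reported here. Alternatives were other scalings, pseudocounts, filters, moderation, thresholds, member and promoter definitions, a replicate block and leaving out each sample.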

Additional observations from a re-analysis of the deposited data

How the results depend on the processing

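The number of members past the adjusted limma threshold was 0 in each direction under the other scalings and with a pseudocount of 0.1 or 5. It was also 0 after removing peaks under the lower quartile, under plain moderation and with limma-voom on the recovered counts. Either other definition of members and the replicate block gave 0 too, as did an adjusted p under 0.05 in the main fit. In the alternative fits, members at an adjusted limma p under 0.05 numbered 2 as deposited, 1 relative to the chromosome median and 1 with a pseudocount of 5. They numbered 2 with the replicate block, 1 with limma-voom and 0 in the other fits of all samples. An unadjusted limma p under 0.05 gave 3 lower and 7 higher. Leaving out 1 sample gave 0 to 2 lower and 0 to 2 higher, and the calls came from leaving out old replicate 1 or old replicate 2. Over all peaks, the calls numbered 10356 without old replicate 1, 1678 without old replicate 2, 8 without young replicate 1 and 0 without young replicate 2. Same-numbered old and young samples did not deviate together (r = -0.10 across peaks). With the replicate block 0 members were called, while the calls over all peaks went from 66 to 1269. In this balanced design the block cannot alter a fold change, so it could not reverse the sign of any peak.

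As deposited, the median log2 fold change of Runx2 peaks was -0.22, and 3 named peaks reversed: -0.090 at the Runx1 distal promoter, -0.18 at the Runx1 proximal promoter and -0.18 at the Runx2 proximal promoter. Quantile normalization gave 0.0015 at the most accessible Runx2 peak. With 1 sample left out, the median of Runx1 peaks ran from -0.18 to 0.43 and that of Runx2 peaks from -0.08 to 0.26. The old minus young difference of the distal minus proximal balance ran from -0.0039 to 0.19 for Runx1, from 0.22 to 0.31 for Runx2 and from -0.26 to 0.16 for Runx3. Named peaks that reversed in this way ranged from -0.071 to 0.47 at the Runx1 distal promoter, from -0.18 to 0.39 at the Runx1 proximal promoter, from -0.049 to 0.26 at the Runx2 proximal promoter, from -0.45 to 0.38 at the Supt3 start, from -0.25 to 0.16 at the most accessible Runx2 peak and from -0.070 to 1.04 at the weak Runx3 peak between the promoters. The causes were not tested. Depth limits the narrowest peaks, such as the Runx2 peak of 0.2 kb that rested on 1 count in old and 18 counts in young MSCs.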
